A study of Mus musculus with 27 samples.

Results

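Respiratory complex I is built from subunits encoded in the nucleus and in mitochondrial DNA, and the values below are those of its nuclear mRNAs in 4T1 cells, a mouse mammary carcinoma line. The members are 35 genes whose symbols stand in the gene-name column of the count table, out of 55401 genes in it. All 35 passed the filter on low counts in both arms of the study, with 13940 genes tested among the clones and 12603 in the drug experiment. The first arm held 6 CRISPR-Cas9 clones and the parental cells, whose genotype is labelled WT. The clones gs1B8 and gs2_B4 are labelled as knockouts of Drp1 (gene Dnm1l), gs1_B11 and gs2_F6 of Fis1, and gs1_B4 and gs1_C8 of Mff. In the second arm, 4T1 cells were given leflunomide for 3 days. Leflunomide is an inhibitor of the pyrimidine enzyme Dhodh, and its controls were given the vehicle DMSO. The sample titles of both drug-arm groups name the 4T1 line and no knockout. Each of the 9 groups had 3 libraries. Each knockout group is a single clone, so its 3 libraries repeat that clone and not the genotype. The labels number the clones of a genotype while the columns carry the codes used here, and no source used here says which code is which number. Nothing says that the libraries came from separate cultures, and the spread behind each p-value is that between samples of a group, which may be technical. In bulk RNA, fewer cells of a kind and less RNA per cell cannot be told apart.

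Complex I oxidises NADH and passes the electrons to ubiquinone, and it pumps protons out of the mitochondrial matrix as it does so. The N module at the tip of the matrix arm binds NADH and flavin, the Q module below it carries the last iron-sulphur clusters and the ubiquinone site, and the membrane arm holds the proton channels, whose cores are the 7 subunits encoded by mitochondrial DNA. The nuclear accessory subunits sit around these cores and are needed for assembly and stability. Drp1 is the GTPase that constricts mitochondria, Mff is its main receptor on the outer membrane, and Fis1 is another outer-membrane protein of the fission machinery. The comparisons below address whether the complex I mRNAs changed when a fission gene was disrupted or when Dhodh was inhibited.

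Library totals ran from 18491987 to 31295858 counts. The targeted mRNAs were lower in their own clones: Dnm1l averaged 68.7 and 41.4 CPM in gs1B8 and gs2_B4, against 218 CPM in parental cells. Fis1 averaged 21 and 17 CPM in gs1_B11 and gs2_F6, against 46.9 CPM in parental cells, and Mff averaged 46.2 and 42.1 CPM in gs1_B4 and gs1_C8, against 84.3 CPM. CPM are counts scaled to the size of the library, and a level in CPM is not corrected for gene length. The epithelial markers Krt8, Krt18, Epcam and Cdh1 summed to between 1290 and 2690 CPM in the 27 libraries. Of the leukocyte markers, Cd3e was at 0 in every library, Ptprc reached at most 0.204 CPM and Lyz2 at most 0.0782 CPM. The 4 endothelial markers summed to at most 0.470 CPM. The 4 fibroblast markers summed to between 2.23 and 8.10 CPM, nearly all from Pdgfra. Pdgfra rose in gs1_B4 (log2 0.45) and gs1_C8 (0.83) and fell in gs2_F6 (-0.68), and its part in the members' values was not tested. DMSO replicate 3 held 23.2% of its counts in the ribosomal RNA precursor, and no other library was outside 1.60% to 5.72%.

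In parental cells the members covered a wide range of levels. Divided by the merged exon length of each gene, the levels ran from 3.16 CPM per kilobase (Ndufb2) to 209 CPM per kilobase (Ndufb9), with a median of 31.7 over the 35. Ndufb9, a distal-arm subunit of the LYR protein family, stood well above Ndufa8 (71.9), Ndufc2 (67.4), Ndufv2 (61.9) and Ndufb3 (61.6), which followed it. Ndufb4 (5.22), Ndufv3 (6.24) and Ndufb7 (7.81) lay just above Ndufb2 at the low end. The merged length takes in the exons of every annotated transcript, so the rank depends on the annotation. Ndufb2 had 5628 merged bases and Ndufb7 4522. Before division Ndufb7 stood at 35.3 CPM, beside Ndufc1 at 35.2 CPM, which had 1495 merged bases and 23.5 CPM per kilobase. Summed over the 35 members, the level was 1950 ± 39.7 CPM in gs1B8, 1920 ± 33.4 in gs2_B4, 1980 ± 4.18 in gs1_B11, 2150 ± 96.8 in gs2_F6, 1900 ± 188 in gs1_B4 and 1810 ± 72.5 in gs1_C8, against 2070 ± 156 CPM in parental cells (SD, n = 3 each). Of the parental libraries, replicate 3 had the highest sum, at 2250 CPM against 1950 and 2010 CPM in the other two. In the drug arm the sum was 2240 ± 39.4 CPM with leflunomide, against 2020 ± 136 CPM with DMSO. The gs1_C8 libraries (1740 to 1890 CPM) lay below every parental library, gs2_B4 (1890 to 1950 CPM) reached only the level of the lowest parental library, and the other 4 clones overlapped the parental range.

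The complex I mRNAs called as changed differed from clone to clone but overlapped. Of the 35, 4 were called in 5 clones, a count for which no share of all genes is given here. None was called in all 6, where 2.10% of all genes were lower and 0.538% higher. In gs1_C8, 20 members fell and 0 rose, and the median of the 35 log2 fold changes was -0.22. In gs2_B4, 12 fell and 2 rose, in gs1B8 10 fell and 1 rose, in gs1_B11 9 fell and 5 rose, and in gs1_B4 8 fell and 6 rose. In gs2_F6, 1 fell and 5 rose, with a median of 0.06. A member is called here where edgeR's quasi-likelihood test gave an adjusted p below 0.05 over all tested genes. The same test called many genes in every clone, and the counts are read against that background. Of all tested genes it called 21.5% higher and 25.2% lower in gs1_C8, 24.1% and 26.3% in gs2_B4, 12.1% and 17.4% in gs1B8, 21.4% and 25.9% in gs1_B11, 20.9% and 26.8% in gs1_B4, and 13.1% and 18.2% in gs2_F6. The share of members lower was 57.1% in gs1_C8, 34.3% in gs2_B4, 28.6% in gs1B8, 25.7% in gs1_B11, 22.9% in gs1_B4 and 2.86% in gs2_F6. The gs1_B11 and gs1_B4 shares lie near the background. For gs1_C8 the 0 higher members compare with 0 at an unadjusted p under 0.05 and 0 by DESeq2.

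**Figure D1:**
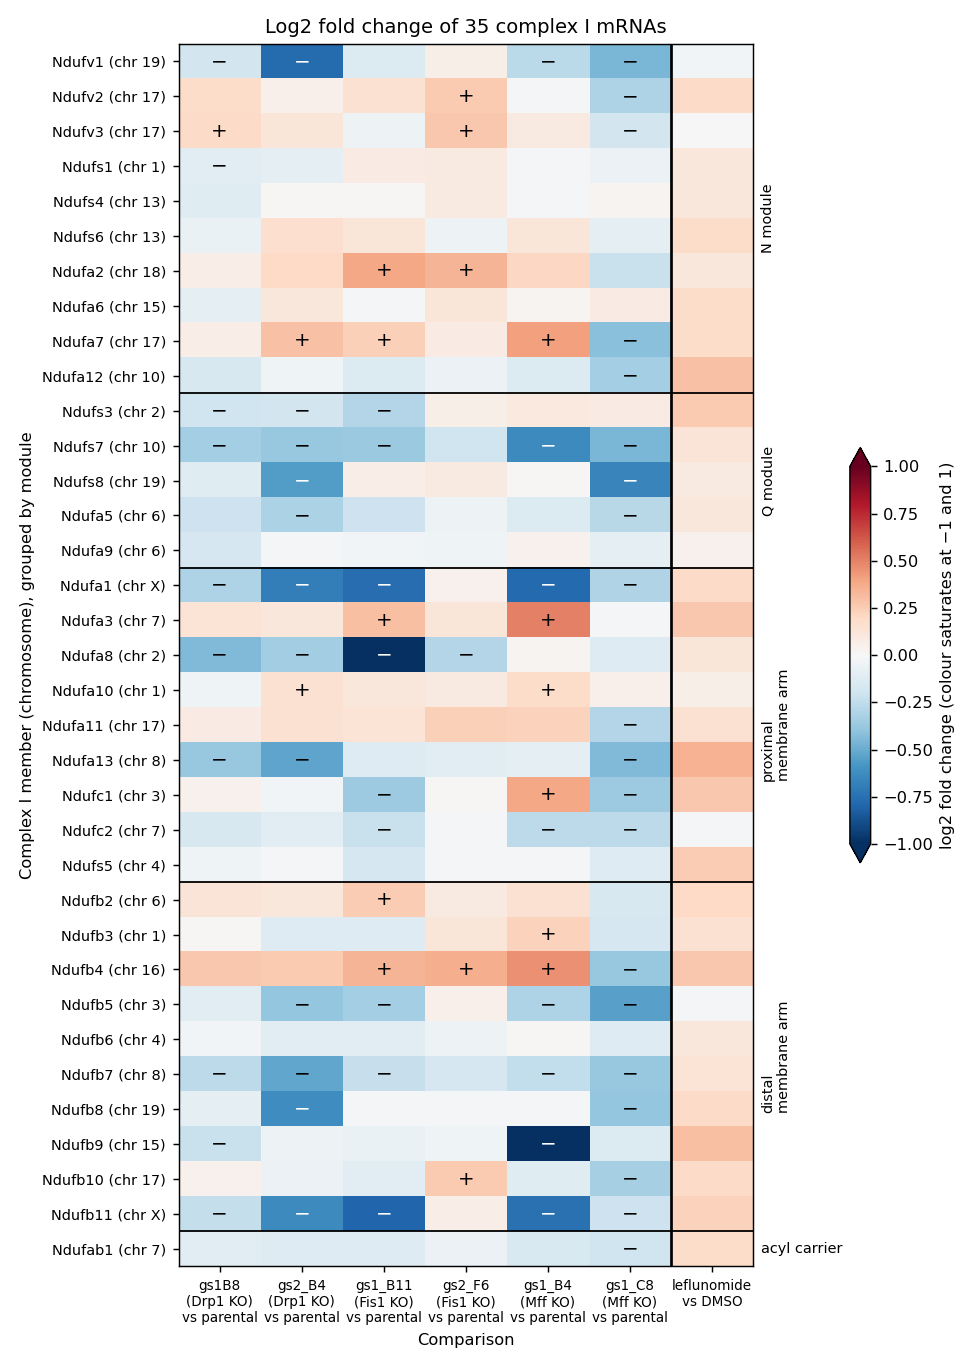
Log2 fold change of each of the 35 members (rows, grouped by module, with the chromosome of each gene) in the 6 clones against parental cells and in leflunomide against DMSO (columns). Plus and minus signs mark members called higher or lower at an adjusted p below 0.05; most minus signs stand in gs1_C8 (20 members) and gs2_B4 (12), and the leflunomide column has none.

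By genotype, 8 members fell and 0 rose in both Drp1 clones, where 12.1% and 7.94% of all genes did. They were Ndufv1, Ndufs3, Ndufs7, Ndufa1, Ndufa8, Ndufa13, Ndufb7 and Ndufb11. Both Mff clones shared 7 lower members and 0 higher, where 11.3% and 7.37% of all genes were called. These were Ndufv1, Ndufs7, Ndufa1, Ndufc2, Ndufb5, Ndufb7 and Ndufb11. Both Fis1 clones shared Ndufa8 as a lower member, and Ndufa2 and Ndufb4 as higher members, where 9.02% and 5.94% of all genes were called. With an unadjusted p under 0.05 in both clones the higher members numbered 1 for Drp1 and 0 for Mff, and DESeq2 called 0 for each. In all 6 clones edgeR called 0 members lower and 0 higher, where 2.10% and 0.538% of all genes were called. At an unadjusted p under 0.05 those counts were 1 and 0, and by DESeq2 0 and 0. Of the 35 members, 6 were called in no clone, 6 in 1, 9 in 2, 5 in 3, 5 in 4 and 4 in 5 clones. The same spread over all tested genes is not given here, so these counts cannot be read against a background. The 6 without a call were Ndufs4, Ndufs6, Ndufa6, Ndufa9, Ndufs5 and Ndufb6. All clones were compared with the same 3 parental libraries, so calls shared by clones are not independent of each other. Without parental replicate 3 the counts of shared lower members were 3 for Drp1 and 4 for Mff, and without gs1B8 replicate 3 the Drp1 count was also 3. The higher count for Fis1 was 0 without parental replicate 1 or 2, gs2_F6 replicate 1 or 2, or gs1_B11 replicate 2, and the higher count for Drp1 was 1 without parental replicate 3.

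In the N module, which takes up NADH, the clones differed in both directions. Ndufv1, the subunit that binds NADH and flavin, had 45.9, 41.7 and 46.1 CPM in gs2_B4, against 68.8, 78.6 and 77.8 CPM in parental cells. All gs2_B4 libraries lay below all parental ones, and the log2 fold change was -0.77 ± 0.06 (SE; edgeR adjusted p = 3.1e-09). It also fell in gs1_C8 (-0.46 ± 0.06), gs1_B4 (-0.27 ± 0.06) and gs1B8 (-0.18 ± 0.06). Ndufv3, a small subunit beside Ndufv1, had 23, 21.4 and 24.3 CPM in gs1B8, against 20.5, 19.2 and 19.9 CPM in parental cells. That was the one member higher in gs1B8 (log2 0.19 ± 0.06, adjusted p = 0.022), and its groups did not overlap. The call was lost without gs1B8 replicate 1 or 3, or parental replicate 2 or 3, at log2 0.15 to 0.19. Ndufa2, a thioredoxin-fold accessory subunit, had 35.6, 34.9 and 34.4 CPM in gs1_B11 and 35.1, 35.3 and 30.8 CPM in gs2_F6, against 21.8, 26 and 31.4 CPM in parental cells. The gs1_B11 libraries lay above the parental ones (log2 0.39 ± 0.12, adjusted p = 0.014, which became 0.081 without parental replicate 1), while one gs2_F6 library lay within the parental range (0.34 ± 0.12, adjusted p = 0.041). Ndufa7, an accessory subunit of this module, moved apart in the Mff clones. It had 51.0, 43.9 and 38.4 CPM in gs1_B4 and 25.1, 24.1 and 25.5 CPM in gs1_C8, against 30.6, 31.3 and 37.3 CPM in parental cells. The clones lay on opposite sides of the parental range, at log2 0.41 ± 0.09 in gs1_B4 (adjusted p = 0.00052) and -0.42 ± 0.09 in gs1_C8 (adjusted p = 0.00069). Ndufa7 also rose in gs2_B4 (0.29 ± 0.09, adjusted p = 0.0083, which became 0.051 without parental replicate 2). Of the 10 members of the module, 5 fell in gs1_C8, where 25.2% of all genes did, and 3 rose in gs2_F6, where 13.1% did. The fall in gs1_C8 was not particular to this module. There 3 of 5 members fell in the Q module, 5 of 9 in the proximal arm and 6 of 10 in the distal arm. Ndufs1, the largest iron-sulphur subunit, ranged only from -0.11 to 0.09 across the clones, and fell in gs1B8 alone among the calls.

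In the Q module, Ndufs7 fell in 5 of the 6 clones. Ndufs7 holds the last iron-sulphur cluster before ubiquinone. It had 23.5, 22.9 and 22.5 CPM in gs1B8, 23.4, 22.3 and 21.9 in gs2_B4, 24.4, 23.1 and 20.2 in gs1_B11, 21.4, 18.5 and 15.9 in gs1_B4 and 23.9, 20.1 and 19.3 in gs1_C8, against 28.5, 28.4 and 29.6 CPM in parental cells. Every library of these 5 clones lay below every parental library. The log2 fold changes were -0.34 ± 0.10, -0.38 ± 0.10, -0.37 ± 0.10, -0.64 ± 0.11 and -0.46 ± 0.10 in that order (adjusted p from 4.3e-05 to 0.017). In gs2_F6 it had 26.6, 27.9 and 21.1 CPM (-0.20 ± 0.10, adjusted p = 0.15). Leaving out parental replicate 1, or gs1B8 replicate 3, ended the gs1B8 call (-0.33 in each case), as did leaving out gs1_B11 replicate 3 for the gs1_B11 call (-0.29). Ndufs8, which carries a pair of iron-sulphur clusters, had 39.1, 35.8 and 35.3 CPM in gs2_B4 and 37.2, 30.4 and 34.3 CPM in gs1_C8, against 50.5, 51.1 and 58.2 CPM in parental cells. Neither clone overlapped the parental range (-0.56 ± 0.08 and -0.66 ± 0.08, adjusted p of 5e-06 and 8.4e-07), and the other 4 clones were not called. Ndufs3, another core subunit, fell by 0.20, 0.18 and 0.29 on the log2 scale in gs1B8, gs2_B4 and gs1_B11. Ndufa9, a subunit that binds NADPH, was called in none of the clones and ranged from -0.17 to 0.04.

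In the proximal membrane arm, Ndufa8 fell the furthest, in one Fis1 clone. Ndufa8 is a subunit with paired cysteine motifs that lies on the intermembrane-space side. It had 26.6, 29.8 and 26.3 CPM in gs1_B11, against 58.7, 61.9 and 65 CPM in parental cells, a ratio of 0.442 (log2 -1.18 ± 0.06, adjusted p = 8e-12). It also fell in gs1B8 (44.5, 46.4 and 47.1 CPM; -0.44 ± 0.06), gs2_B4 (50.3, 47.8 and 49.7 CPM; -0.35 ± 0.06) and gs2_F6 (54.1, 50.8 and 48.3 CPM; -0.29 ± 0.06). None of these 4 clones overlapped the parental libraries. Of the Mff clones, which were not called, gs1_B4 (67.3, 64.5 and 58.6 CPM) overlapped them and gs1_C8 (58.4, 55.1 and 57.1 CPM) lay just below. Ndufa1, a small subunit needed for assembly, had 20.2, 20 and 19 CPM in gs1B8, 13.6, 15.3 and 16.9 in gs2_B4, 14, 14 and 15.7 in gs1_B11, 13.8, 14 and 14.9 in gs1_B4 and 19, 20.6 and 19.9 in gs1_C8, against 20.8, 22.7 and 29.4 CPM in parental cells. All 5 clones lay below the parental range, gs1B8 and gs1_C8 only just. The log2 fold changes were -0.31, -0.69, -0.76, -0.78 and -0.30 (SE 0.09 to 0.10; adjusted p from 1.5e-06 to 0.017). In gs2_F6 Ndufa1 had 25.4, 25.7 and 24.4 CPM, within the parental range. The calls in gs1B8 and gs1_C8 were lost without parental replicate 3 (-0.16 and -0.15), and also without gs1B8 replicate 3 (-0.29) and gs1_C8 replicate 1 (-0.26). Ndufa13, also known as GRIM-19, fell in gs1B8 (-0.38 ± 0.10), gs2_B4 (-0.53 ± 0.10) and gs1_C8 (-0.44 ± 0.10).

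Other members of the proximal arm rose in some clones. Ndufa3, a small membrane subunit, had 46.2, 38.0 and 33.6 CPM in gs1_B4, against 25.8, 26.1 and 30.6 CPM in parental cells, without overlap (log2 0.50 ± 0.09, adjusted p = 0.00013), and it rose by 0.30 ± 0.09 in gs1_B11. Ndufc1, another small membrane subunit, had 50.9, 49.3 and 39.1 CPM in gs1_B4 and 30.3, 25.9 and 26.4 CPM in gs1_C8, against 34.0, 33.2 and 38.3 CPM in parental cells. For Ndufc1, as for Ndufa7, the Mff clones stood on either side of the parental libraries (0.39 ± 0.09 and -0.36 ± 0.09, adjusted p of 0.0011 and 0.003). Ndufa10, a subunit related to nucleoside kinases, rose by 0.15 in gs2_B4 and 0.18 in gs1_B4. Ndufs5 was called in none of the clones, at -0.17 to -0.01.

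In the distal membrane arm the largest change of any member was that of Ndufb9 in gs1_B4. It had 61.4, 58.9 and 50.8 CPM in gs1_B4 and 207, 187 and 195 CPM in gs1_C8, against 201, 205 and 238 CPM in parental cells. The gs1_B4 ratio to parental cells was 0.264 (log2 -1.92 ± 0.07, adjusted p = 2.7e-14), and gs1_C8 was not called (-0.14 ± 0.06, adjusted p = 0.083). A smaller fall in gs1B8 was called (189, 185 and 185 CPM; -0.22 ± 0.06, adjusted p = 0.014). Ndufb11, a subunit with a single membrane span, had 36.8, 38.2 and 34.1 CPM in gs1B8, 27.9, 27.6 and 27.3 in gs2_B4, 25.7, 25.2 and 23.4 in gs1_B11, 29.1, 25.9 and 21.7 in gs1_B4 and 37.3, 36.3 and 37.7 in gs1_C8, against 40.8, 39.8 and 47.0 CPM in parental cells. These 5 clones lay below the parental range, at log2 -0.24, -0.64, -0.79, -0.75 and -0.21 (SE 0.08 to 0.09; adjusted p from 2.9e-07 to 0.046). In gs2_F6 it had 48.0, 46.0 and 41.2 CPM, a log2 fold change of 0.07. The gs1B8 call ended on leaving out replicate 1 or 3 of either group (-0.25 to -0.16), or the ribosomal RNA genes (-0.22). The gs1_C8 call was lost without parental replicate 1 or 3 or any gs1_C8 replicate (-0.21 to -0.13), and with DESeq2 (-0.19, adjusted p = 0.071). Ndufb7, a subunit with paired cysteine motifs, had 29.5, 30.8 and 28.9 CPM in gs1B8, 25.6, 24.3 and 24.6 in gs2_B4, 30.7, 31 and 29.3 in gs1_B11, 33.8, 30.1 and 25.5 in gs1_B4 and 28.3, 27 and 26.4 in gs1_C8, against 34.6, 33.7 and 37.5 CPM in parental cells. Only gs1_B4 touched the parental range, and the log2 fold changes were -0.26, -0.52, -0.23, -0.25 and -0.38 (SE 0.08 each; adjusted p from 1.3e-05 to 0.02). Its calls in gs1B8, gs1_B11 and gs1_B4 were each lost without parental replicate 3 (-0.22, -0.19 and -0.21) and without replicate 3 of the clone itself (-0.24, -0.20 and -0.15). The gs1_B11 call was also lost without parental replicate 1 (-0.23) or gs1_B11 replicate 1 (-0.22).

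Ndufb4, a distal-arm subunit, was higher in 3 clones and lower in 1. It had 12.4, 12.9 and 13 CPM in gs1_B11, 14, 13 and 12 in gs2_F6, 14.8, 15.8 and 11 in gs1_B4 and 8.23, 7.28 and 7.65 in gs1_C8, against 9.53, 9.37 and 11.1 CPM in parental cells. The gs1_B4 libraries reached into the parental range, and the other 3 clones stayed outside it. The log2 fold changes were 0.34 ± 0.11, 0.36 ± 0.11, 0.46 ± 0.11 and -0.38 ± 0.12 (adjusted p of 0.02, 0.018, 0.002 and 0.012). The gs2_F6 call was lost without parental replicate 1 or 2 or gs2_F6 replicate 1 or 2 (0.31 to 0.36), and the gs1_C8 call without parental replicate 3 or gs1_C8 replicate 2 (-0.30 and -0.34). The near-identical gene copy Ndufb4c is listed apart from it at 34.9 ± 4.06 CPM in parental cells (SD, n = 3), so how reads were divided between the copies bears on the Ndufb4 level. Ndufb5, which follows in the same arm, fell in gs2_B4 (-0.39), gs1_B11 (-0.34), gs1_B4 (-0.31) and gs1_C8 (-0.54), and overlaps its neighbour Mrpl47 by 616 bases. Ndufb8, a further distal-arm subunit, fell in gs2_B4 (-0.62 ± 0.07) and gs1_C8 (-0.39 ± 0.07). Ndufab1, the mitochondrial acyl carrier protein, fell in gs1_C8 (-0.20) and was not called elsewhere.

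**Figure D2:**
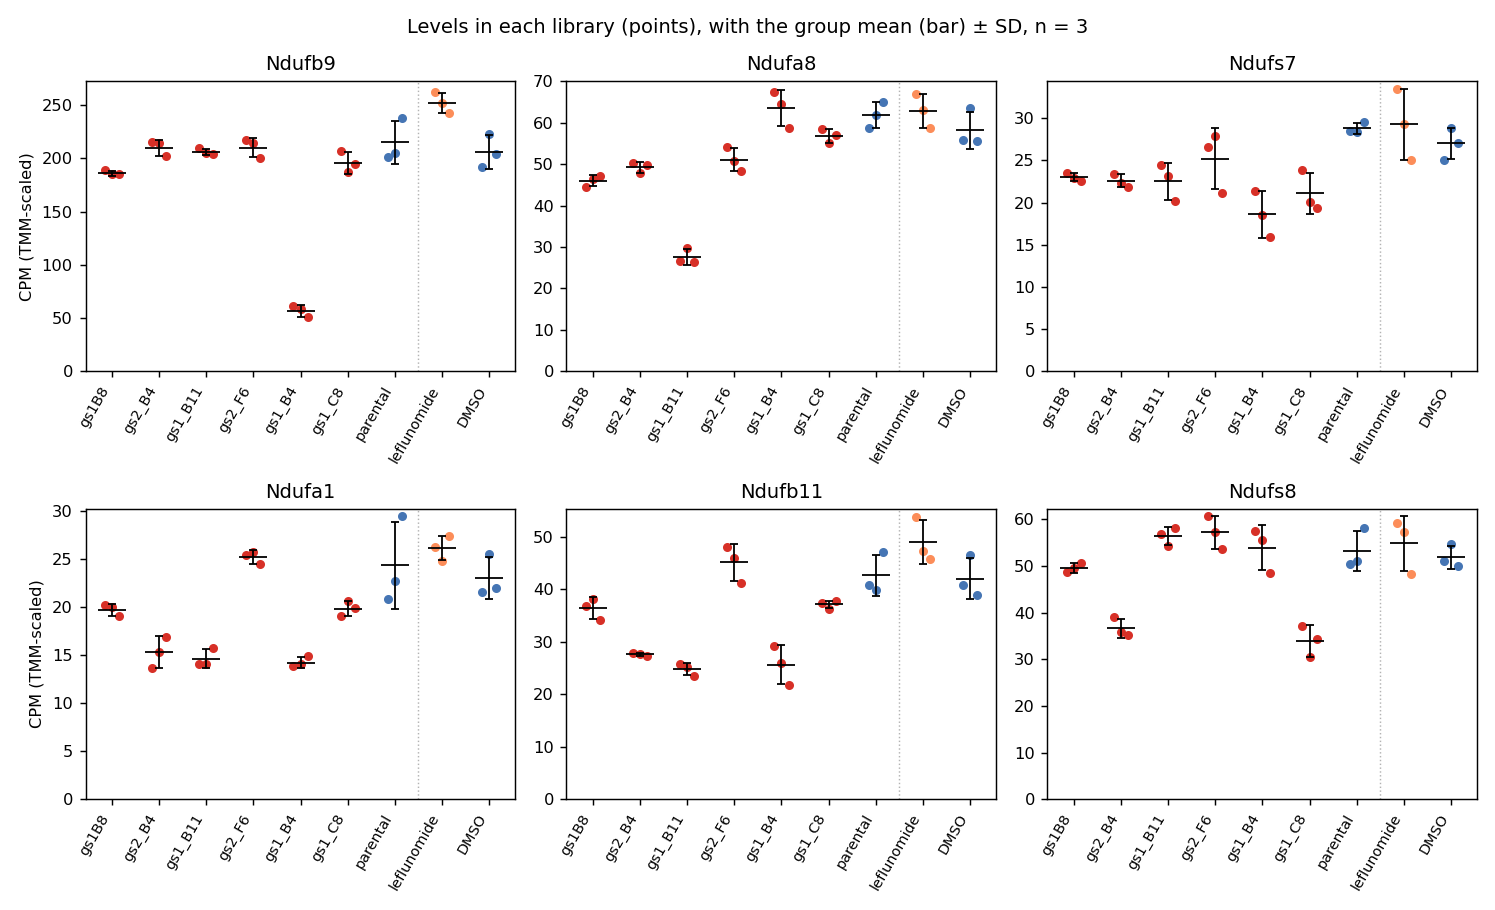
Level in CPM (linear axes starting at 0) of Ndufb9, Ndufa8, Ndufs7, Ndufa1, Ndufb11 and Ndufs8 in each library (points), with the group mean (bar) and SD (error bar, n = 3), for the 6 clones and parental cells and, right of the dotted line, leflunomide and DMSO. Ndufb9 stands at 57.1 CPM in gs1_B4 and between 186 and 252 CPM in the other 8 groups, and Ndufa8 at 27.6 CPM in gs1_B11.

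The members' changes moved with those of the other genes of their chromosomes. The 35 genes lie on 15 chromosomes. For each clone, a member's log2 fold change was set beside the median log2 fold change of the other tested genes of its chromosome. Pearson's r across the 35 members was 0.65 in gs1B8, 0.86 in gs2_B4, 0.73 in gs1_B11, 0.61 in gs2_F6, 0.51 in gs1_B4 and 0.81 in gs1_C8, and -0.05 with leflunomide. These are descriptions: members of 1 chromosome share its median, and all clones share the parental libraries. On chromosome X, the median was -0.73 in gs1_B11, -0.72 in gs1_B4 and -0.50 in gs2_B4, against -0.23 in gs1B8, -0.09 in gs1_C8 and 0.04 in gs2_F6. The X-linked members Ndufa1 and Ndufb11 followed that order closely, and their group means had r = 0.99 over the 7 groups of the knockout arm. On chromosome 19, the median was -0.58 in gs2_B4 and -0.31 in gs1_C8, the clones in which the members Ndufv1, Ndufs8 and Ndufb8 all fell. Chromosome 8, which carries Ndufa13 and Ndufb7, had a median between -0.57 and -0.24 in all 6 clones. Chromosome 17, with 5 members, had medians of 0.09 to 0.14 in 5 clones and -0.20 in gs1_C8, where all 5 members fell. On chromosomes 8, 19 and X, the 7 members gave 26 lower calls of 42 member-clone pairs, against 34 of 168 for the 28 members elsewhere. These chromosomes were picked for their low medians, and a large share of all their tested genes was lower as well. That share was 52.7% to 74.3% on chromosome 8 over the 6 clones. On chromosome 19 it was 77.2% in gs2_B4 and 59.4% in gs1_C8, with 16.7% to 49.4% in the other 4 clones. On X it was 66.7% to 70.8% in gs2_B4, gs1_B11 and gs1_B4, with 12.4% to 45.4% in the other 3. Read against these shares, the count of 26 shows nothing particular to the 7 members. What lay behind the chromosome medians was not tested.

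**Figure D3:**
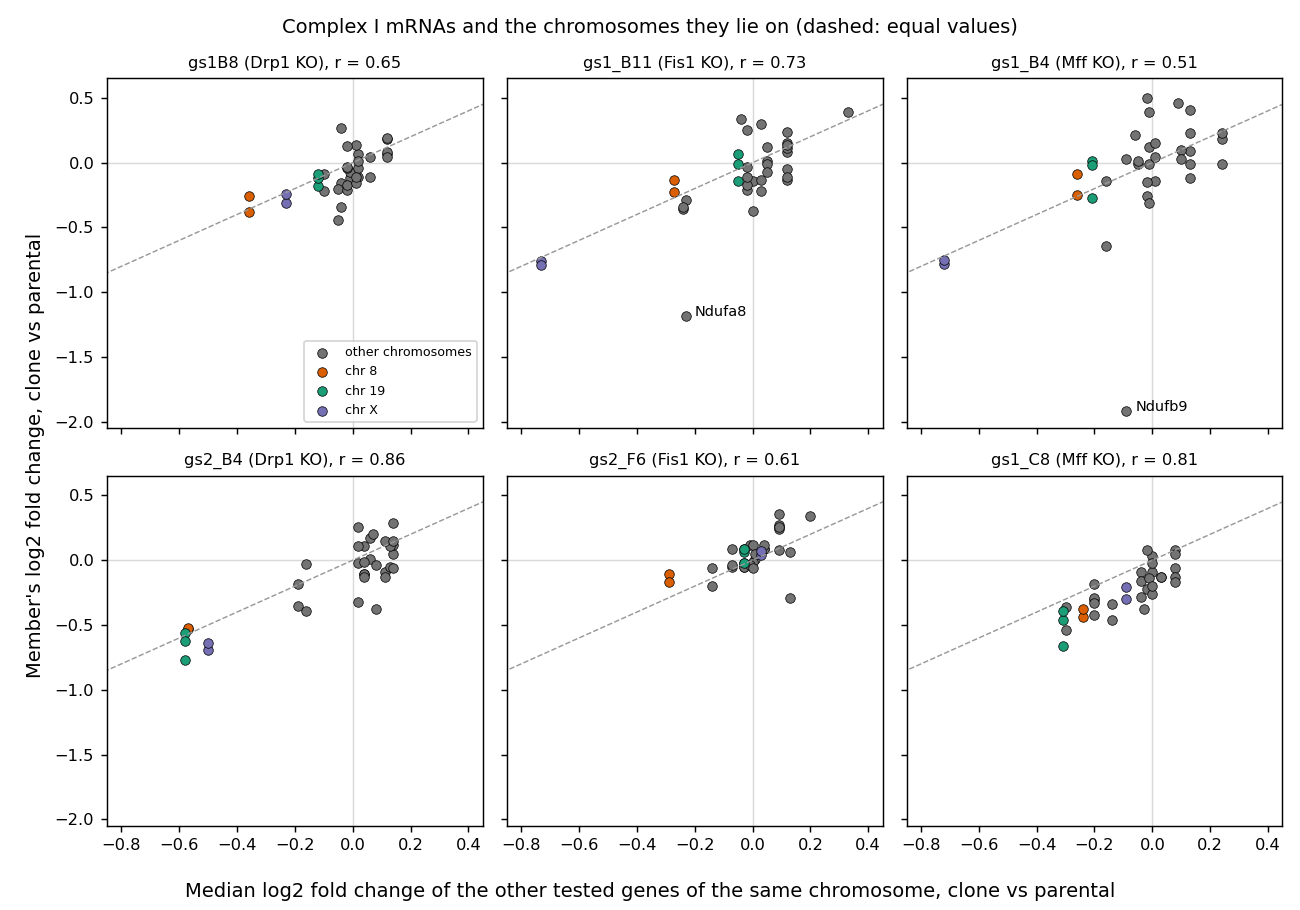
Log2 fold change of each member (vertical axis) against the median log2 fold change of the other tested genes of its chromosome (horizontal axis), 1 panel per clone, with Pearson's r across the 35 members; the dashed line marks equal values. Members on chromosomes X, 19 and 8 lie at the low end of both axes in gs2_B4 (r = 0.86), and Ndufb9 in gs1_B4 and Ndufa8 in gs1_B11 lie far below the line.

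Set relative to the chromosome median, an alternative added after the data were seen, fewer members stood apart. Of the 60 lower calls summed over the 6 clones, 24 were kept, and of the 19 higher calls 9 were kept. With new calls added, the relative fit gave 37 lower and 11 higher calls. In gs1_C8 10 members were then called lower (7 of the 20 kept), in gs2_B4 10 (5 of the 12 kept), and in gs1B8 4. The share of all tested genes called in that fit is not given here, so these counts cannot be read against a background. Ndufs7 was kept in all 5 of its clones, at log2 -0.30, -0.45, -0.37, -0.48 and -0.32 relative to chromosome 10 (adjusted p from 0.001 to 0.044). Ndufa8 was kept in its 4 clones, with -0.94 in gs1_B11 (adjusted p = 3.7e-10). Ndufb9 was kept in gs1_B4 at -1.83 (adjusted p = 6.7e-14). Ndufa3 was kept in gs1_B4 at 0.53 and in gs1_B11 at 0.27. Relative to chromosome 1, Ndufs1 was lower in gs1B8, gs2_B4, gs1_B4 and gs1_C8, at -0.13, -0.20, -0.25 and -0.13 (adjusted p from 2.8e-05 to 0.016). Only its gs1B8 call was also made in the main fit. Ndufb7 was no longer called in gs1B8, gs2_B4, gs1_B11 or gs1_B4, where its value became 0.10, 0.05, 0.04 and 0.00. Its gs1_C8 call was lost too (-0.14, adjusted p = 0.17). For the X-linked pair, all 5 calls of each member were lost. Ndufa1 had relative values of -0.09, -0.18, -0.03, -0.06 and -0.21 in gs1B8, gs2_B4, gs1_B11, gs1_B4 and gs1_C8 (adjusted p from 0.079 to 0.86). Ndufb11 had -0.01, -0.14, -0.06, -0.02 and -0.12 in the same clones (adjusted p from 0.19 to 0.93).

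Over the 7 groups of the knockout arm, the mean Pearson r between the group means of 2 members was 0.24 over 595 pairs, against 0.00 over all tested genes. That 0.00 is not a matched background. Scaling of the libraries holds it near 0, and the tested genes include some at far lower levels than any member. For the 30 pairs on the same chromosome it was 0.53, against 0.23 for the 565 pairs on different chromosomes. For all tested genes the mean for pairs on the same chromosome was 0.13. The pairs Ndufv1 with Ndufb8 (0.93), Ndufs8 with Ndufb8 (0.92) and Ndufa13 with Ndufb7 (0.88) were close to the X-linked pair, while Ndufa3 and Ndufc2, both on chromosome 7, had r = -0.48.

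The sequences upstream of the X-linked pair and of a pair on chromosome 19 are shown because the members of each pair moved together in the clones. Each is the 250 bases before the RefSeq start of the gene (GRCm38.p6), 5′ to 3′ on the gene's strand. None of the 4 overlaps an annotated exon of its own gene. Capitals mark matches, on either strand, to the YY1 core AANATGGC and the NF-Y box CCAAT. These motifs do not overlap in the sequences.
Ndufa1, chrX:37191239-37191488, minus strand: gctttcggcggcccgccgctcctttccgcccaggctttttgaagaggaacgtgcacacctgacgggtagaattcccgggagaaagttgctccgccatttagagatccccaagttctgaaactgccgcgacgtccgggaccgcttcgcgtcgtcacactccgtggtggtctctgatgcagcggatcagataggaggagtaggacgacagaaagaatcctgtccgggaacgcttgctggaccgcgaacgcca
Ndufb11, chrX:20617620-20617869, minus strand: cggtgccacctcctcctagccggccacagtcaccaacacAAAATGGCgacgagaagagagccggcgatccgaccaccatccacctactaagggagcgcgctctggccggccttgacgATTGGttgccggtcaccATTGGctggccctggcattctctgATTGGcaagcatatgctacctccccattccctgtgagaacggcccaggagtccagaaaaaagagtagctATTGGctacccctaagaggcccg
Ndufs8, chr19:3912775-3913024, minus strand: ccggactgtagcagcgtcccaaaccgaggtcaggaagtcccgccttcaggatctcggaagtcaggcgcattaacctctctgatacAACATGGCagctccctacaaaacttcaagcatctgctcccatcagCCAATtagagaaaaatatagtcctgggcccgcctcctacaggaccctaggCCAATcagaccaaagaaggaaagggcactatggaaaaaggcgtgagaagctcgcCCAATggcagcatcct
Ndufb8, chr19:44555443-44555692, minus strand: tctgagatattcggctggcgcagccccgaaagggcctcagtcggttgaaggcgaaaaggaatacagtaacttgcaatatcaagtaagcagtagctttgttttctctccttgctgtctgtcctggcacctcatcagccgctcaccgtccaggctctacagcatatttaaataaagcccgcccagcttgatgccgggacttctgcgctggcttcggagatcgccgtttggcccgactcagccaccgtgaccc
Ndufb11 holds 1 YY1 match and 4 NF-Y matches, and Ndufs8 holds 1 and 3, whereas Ndufa1 and Ndufb8 hold neither in these letters. In windows of 300 bases, which run past the start and in which Ndufb8 does hold a YY1 core, a promoter was listed for 32 of the 35 members (34 windows). The YY1 core stood in 35.3% of these windows, against 6.05% of 32851 windows of all genes. The windows of all genes were not limited to the genes tested here, so they are not a matched background. The NRF1 motif GCGCATGC stood in 8.82% (3 windows), against 2.71%, and the ETS motif CCGGAAG in 11.8% (4 windows), against 8.86%. The NF-Y box stood in 29.4%, against 37.4% of all windows. The 12 members with the YY1 core were Ndufs4, Ndufs6, Ndufa7, Ndufs7, Ndufs8, Ndufa9, Ndufa3, Ndufc1, Ndufb5, Ndufb8, Ndufb10 and Ndufb11. Of these, Ndufs4, Ndufs6 and Ndufa9 were called in no clone. A match of letters does not show that a factor binds. No promoter is given here for Ndufb9.

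The fall of Ndufb9 in gs1_B4 was shared by the genes around it. Ndufb9 (ENSMUSG00000022354.4) lies on chromosome 15 of GRCm38, from 58933756 to 58939488. Within 1.5 Mb on each side, 23 other genes were tested. In gs1_B4, 17 of the 23 fell and 2 rose, and their median log2 fold change was -0.84. In gs1_C8, 5 fell and 6 rose, with a median of 0.07. Tatdn1, whose interval ends at 58933738, just before Ndufb9 starts, had 15.4, 13.9 and 13.1 CPM in gs1_B4 and 55.6, 53.5 and 57.9 CPM in gs1_C8, against 51.2, 54.8 and 52.3 CPM in parental cells. Its gs1_B4 libraries lay far below the rest (log2 -1.91 ± 0.05, adjusted p = 7.8e-16). Rnf139, a ubiquitin ligase gene on the same side, fell by 1.41 ± 0.04, and Mtss1, on the other side, by 1.5 ± 0.06. Farther off, Zhx1 fell by 2.23 ± 0.06 while Fam91a1 had a log2 fold change of -1.53 ± 0.05. Zhx1 also fell in gs1B8 (-0.51), gs2_B4 (-1.14) and gs1_B11 (-1.24), where Ndufb9 was at -0.22, -0.05 and -0.07, and it rose in gs1_C8 (0.86). In gs1B8, 10 of the 23 neighbours fell and 1 rose, with a median of -0.15, where 26.3% of chromosome 15 genes were lower. Genes that moved less lay on both sides, with Tmem65 at -0.23 ± 0.08 and Nsmce2 at -0.11 ± 0.07 (adjusted p = 0.19), and Trib1 (0.56 ± 0.10) and Fer1l6 (2.11 ± 0.24) rose. These neighbours were chosen after their values were seen. Why the neighbours moved together was not tested. Around Ndufa8 on chromosome 2, 15 of 28 genes fell and 2 rose in gs1_B11, with a median of -0.17, against -1.18 for Ndufa8 itself. Over all tested genes of chromosome 2 in that clone, 51.6% were lower and the median was -0.23, so these neighbours did not stand apart.

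**Figure D4:**
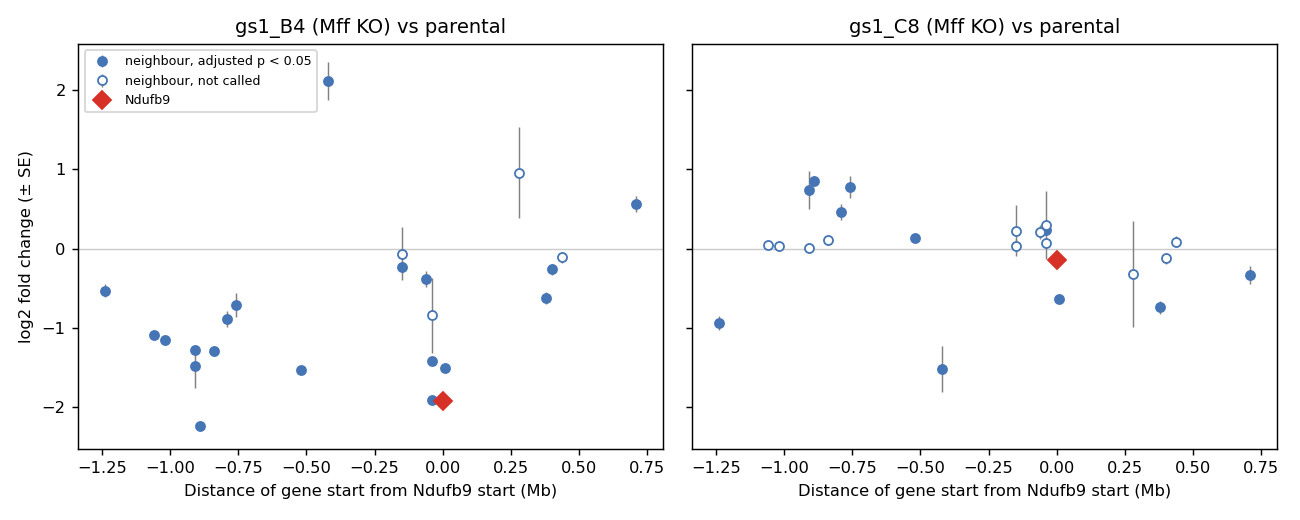
Log2 fold change with SE of Ndufb9 (red diamond) and of the 23 tested genes within 1.5 Mb (circles, filled where the adjusted p was below 0.05) against the distance of each gene's start from that of Ndufb9 in Mb, for the Mff clones gs1_B4 (left) and gs1_C8 (right) against parental cells. In gs1_B4 17 of the 23 neighbours fell with Ndufb9, while in gs1_C8 the neighbours scatter around a median of 0.07.

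Tested against each other, the clones of a genotype differed in many members. Between gs1_B4 and gs1_C8, 22 members differed, 19 of them higher in gs1_B4, where 54.7% of all genes differed. Between gs1B8 and gs2_B4 11 members differed, against 41.0% of all genes, and between gs1_B11 and gs2_F6 11 differed, all lower in gs1_B11, against 47.6% of all genes. The largest such differences were Ndufb9 (-1.78 ± 0.07) and Ndufb4 (0.84 ± 0.11) for gs1_B4 against gs1_C8, Ndufa8 (-0.89 ± 0.06) for gs1_B11 against gs2_F6, and Ndufv1 (0.59 ± 0.06) for gs1B8 against gs2_B4. The shares of members that differed, 62.9%, 31.4% and 31.4%, were near or below those of all genes.

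Among mRNAs that share complex I's work, some of those encoded by mitochondrial DNA rose in the Drp1 and Fis1 clones. Of the 7 mt-Nd mRNAs, 2 rose in both Drp1 clones and 3 in both Fis1 clones, where 7.94% and 5.94% of all genes did. In both Mff clones 0 were called in 1 direction, where 7.37% of all genes rose and 11.3% fell. For a list of 7, that 0 lies near the background. In gs1_B4 0 of the 7 were called, where 20.9% of all genes rose and 26.8% fell. In gs1_C8 3 fell and 1 rose, where 25.2% of all genes fell and 21.5% rose. mt-Nd3 averaged 331 ± 12.5 CPM in gs1_C8, against 571 ± 77.9 CPM in parental cells (SD, n = 3 each). mt-Nd1 averaged 3610 ± 156 CPM in gs1_C8, against 4630 ± 113 CPM in parental cells (SD, n = 3 each). Their log2 fold changes there were -0.80 and -0.37, and those of mt-Nd2 and mt-Nd4 were -0.20 and 0.18. mt-Nd1 had log2 fold changes of 0.30 ± 0.05 and 0.37 ± 0.05 in gs1B8 and gs2_B4, and of 0.43 ± 0.05 in each of gs1_B11 and gs2_F6. mt-Nd2 had 0.38 and 0.55 in the Drp1 clones, and 0.43 and 0.45 in the Fis1 clones. mt-Nd3 had 0.64 ± 0.16 and 0.52 ± 0.16 in the Fis1 clones. The medians over the 7 were 0.30, 0.37, 0.43 and 0.43 in gs1B8, gs2_B4, gs1_B11 and gs2_F6, against -0.02 and -0.01 in gs1_B4 and gs1_C8. The equal medians of the Fis1 clones hide a difference. In gs1_B11 all 7 were positive and 6 were called higher, where 21.4% of all genes were. In gs2_F6 only 4 were positive, with the lowest of the 7 at -0.09, and 3 were called higher, where 13.1% of all genes were. The medians over all tested genes were between -0.02 and 0.00 in each clone.

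Of 20 listed assembly factors of complex I, 19 were tested. Of these, 3 fell in both Drp1 clones, 4 in both Fis1 clones and 2 in both Mff clones, and 0 rose in both clones of any genotype. Over all tested genes 12.1%, 9.02% and 11.3% fell in both clones of those genotypes, so the Drp1 and Mff counts lie near the background. Foxred1, an oxidoreductase needed for assembly, had log2 fold changes of -0.52 ± 0.05 and -0.99 ± 0.05 in gs1B8 and gs2_B4, and of -0.48 ± 0.05 and -0.35 ± 0.05 in gs1_B11 and gs2_F6. Ndufaf4, which works early in assembly, fell in all 6 clones, by 0.24, 0.44, 0.47, 0.19, 0.59 and 0.14 on the log2 scale in gs1B8, gs2_B4, gs1_B11, gs2_F6, gs1_B4 and gs1_C8. Ecsit, an assembly factor of the membrane arm, fell by 0.34 and 0.35 in gs1_B11 and gs2_F6. Acad9, a dehydrogenase of the same assembly complex, fell by 0.27 and 0.35 in gs1_B4 and gs1_C8. The median over the 19 was -0.27 in gs1_B11 and between -0.18 and -0.01 in the other 5 clones.

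Of 54 listed subunits of complexes II to V, 39 were matched by symbol and tested, and the others were not analysed here. Of the 39, 14 fell and 0 rose in both Mff clones, where 11.3% of all genes fell. In both Drp1 clones 3 fell, where 12.1% of all genes did, and in both Fis1 clones 3 rose, where 5.94% did. The Drp1 and Fis1 counts are thus no higher than, or near, the background. In gs1_C8 22 of the 39 fell and 1 rose (median -0.19), and in gs1_B4 14 fell and 5 rose (median -0.09). Cox4i1, a nuclear subunit of cytochrome oxidase, had log2 fold changes of -0.31 ± 0.05 and -0.40 ± 0.05 in gs1_B4 and gs1_C8. Cox7b, another, had -0.81 ± 0.09 and -0.31 ± 0.09, and Atp5g1, a subunit of the ATP synthase rotor, had -0.42 ± 0.11 and -0.32 ± 0.11. In gs1_C8 the complex I count of 20 of 35 stands beside 22 of 39 for these complexes, and the difference between the lists was not tested.

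With leflunomide, 32 of the 35 members had a positive log2 fold change against DMSO, but none was called. The median was 0.18, with a range from -0.03 (Ndufv1) to 0.35 (Ndufa13), where the median of all tested genes was 0.00. edgeR called 0 members higher, where 1.84% of all genes were, and 0 lower, where 0.944% were. At an unadjusted p under 0.05, 12 members were higher and 0 lower, and 20.9% of all genes passed that level in either direction. DESeq2 called 2 members higher, Ndufa13 (0.34, adjusted p = 0.042) and Ndufb9 (0.29, adjusted p = 0.0096). Ndufb9 had 262, 252 and 243 CPM with leflunomide, against 192, 223 and 204 CPM with DMSO, without overlap (edgeR log2 0.30 ± 0.08, adjusted p = 0.083). Ndufa13 had 52.9, 44.5 and 47.8 CPM with leflunomide, against 35.7, 42.5 and 36.7 CPM with DMSO, also without overlap (0.35 ± 0.09, adjusted p = 0.093). Without leflunomide replicate 3, 3 members were called higher: Ndufs3 (0.30), Ndufb9 (0.33) and Ndufb10 (0.25). Without DMSO replicate 3, the library with most ribosomal RNA, 31 members were positive with a median of 0.15, and 0 were called. The 39 subunits of complexes II to V had a median of 0.11 with 30 positive, the 19 assembly factors 0.02, and the 7 mt-Nd mRNAs 0.13, and 0 of each list were called.

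**Figure D5:**
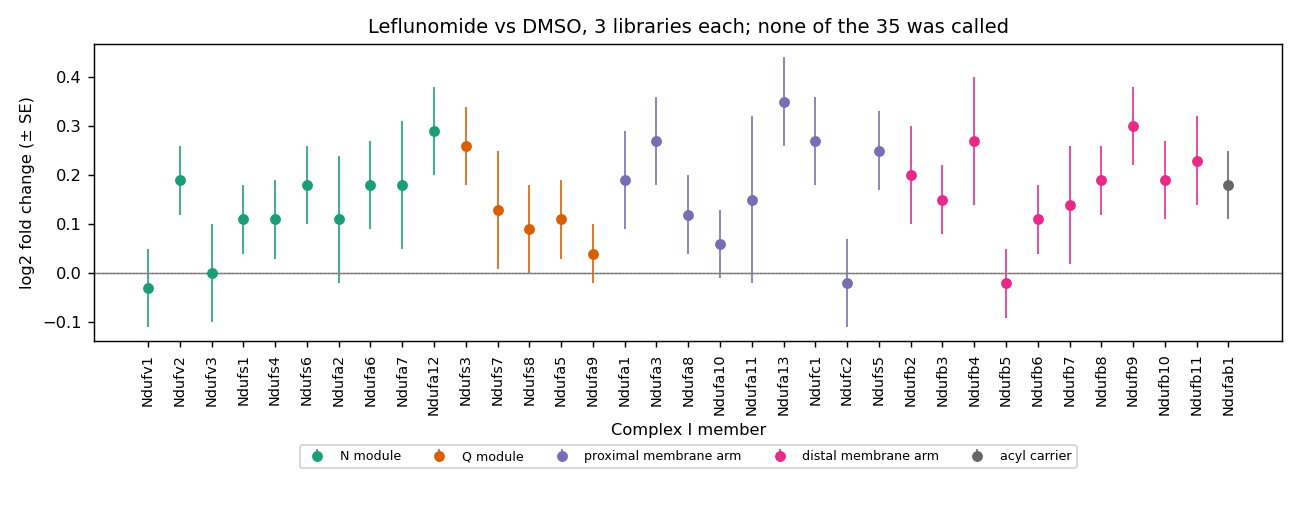
Log2 fold change with SE of each of the 35 members in leflunomide against DMSO (3 libraries each), coloured by module; the line at 0 is also the median of all tested genes to 2 decimals. Of the points, 32 lie above 0, from 0.35 (Ndufa13) down, and none passed an adjusted p of 0.05.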

How the data were processed

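PolyA RNA libraries were made with the KAPA RNA HyperPrep kit from 4T1 cells, per the labels' protocols. Per the submitters' processing notes, reads were trimmed with Trimmomatic 0.35 and quantified with RSEM on GRCm38 (mm10); the RSEM version, the aligner and any use of strand are not given. Expected counts were deposited for every gene in 27 libraries. Of the values above 0, 74.9% were exactly whole (91.5% with zeros included), and all were rounded to whole numbers. Counts were fitted with edgeR 4.0.16 in R 4.3.3 (filterByExpr, TMM, quasi-likelihood F test, two-sided, Benjamini-Hochberg over all tested genes, threshold 0.05), the 21 libraries of the knockout arm together and the 6 of the drug arm apart. Levels are CPM with TMM-scaled totals. The procedure was tested on simulated data. Alternatives were DESeq2 1.42.0, its size factors, no low-count filter, all 27 libraries in 1 fit, a block for the columns' serial run, removal of ribosomal RNA genes, leaving out each library and, added after the data were seen, fold changes relative to the chromosome median. Promoters are from RefSeq (GRCm38.p6) and exon lengths from GENCODE. Members given per library were those called with 1 sign in 5 or 6 clones, with the largest rise or fall in a comparison, or with opposite signs in a genotype's clones; from other lists at most 3 called genes were named per genotype. Members and lists were chosen with earlier results of these data known. The markers were read in all libraries, and 1 of them is not reported here. Figures were drawn with matplotlib 3.10.9.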

Additional observations from a re-analysis of the deposited data

Results flagged for a closer look

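Clones of 1 genotype differed from each other by a direct test. Between the Drp1 clones gs1B8 and gs2_B4, 11 members differed, with Ndufv1 the largest at log2 0.59 for gs1B8 against gs2_B4. Between the Fis1 clones gs1_B11 and gs2_F6, 11 differed, with Ndufa8 the largest at -0.89. Between the Mff clones gs1_B4 and gs1_C8, 22 differed, with Ndufb9 the largest at -1.78. Of all tested genes, 41.0%, 47.6% and 54.7% differed in the same 3 tests. The member shares of 31.4%, 31.4% and 62.9% were near or below these. Ndufa7 (0.83), Ndufc1 (0.75) and Ndufb4 (0.84) differed between gs1_B4 and gs1_C8 and were called in opposite directions against parental cells. Relative to the chromosome median, the calls of Ndufb4 in gs1_B4 (0.37) and gs1_C8 (-0.35) and of Ndufa8 in gs1_B11 (-0.94) were kept, whereas Ndufa7 and Ndufc1 kept only the gs1_B4 call.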

How the results depend on the processing

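Of the 79 calls of members in single clones, 77 were kept with DESeq2, 77 with its size factors, 76 without the low-count filter, 69 with all 27 libraries in 1 fit, 75 without ribosomal RNA genes and 33 relative to the chromosome median, where 10 signs turned. Leaving out 1 library kept between 61 (parental replicate 3) and 79, and without gs1_B4 replicate 3 there were 20 more calls. Counts that moved by over 1.5 times were as follows. In gs1B8 the higher count of 1 became 2 with DESeq2, its size factors, no filter, 1 fit, the block or no ribosomal RNA genes, and 0 by chromosome, and the lower count of 10 became 6 in 1 fit and 4 by chromosome. In gs2_B4 the higher count of 2 became 5 without the filter, 4 without ribosomal RNA genes and 0 by chromosome. By chromosome the higher counts became 3 in gs1_B11 and 2 in gs2_F6, and the lower count in gs1_C8 became 10. With leflunomide the higher count of 0 became 2 with DESeq2, 3 without the filter and 7 in 1 fit. For both Drp1 clones the higher count became 1 without the filter, and the lower count of 8 became 5 in 1 fit and 3 by chromosome. For both Fis1 clones the higher count became 0 by chromosome, and for both Mff clones the lower count became 4. The clone differences became 3 for gs1B8 against gs2_B4 and 7 for gs1_B11 against gs2_F6 by chromosome. By chromosome Ndufb7 came to 0.10, 0.05, 0.04 and 0.00 in gs1B8, gs2_B4, gs1_B11 and gs1_B4, near 0 and not called. The other turned signs were those of Ndufs3, Ndufs8 and Ndufa13 in gs2_B4, Ndufa10 and Ndufb3 in gs1_B4 and Ndufv3 in gs1_C8, all between -0.05 and 0.05 and not called. The cause was not tested.

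Leaving out each library in turn gave higher counts of 0 to 2 in gs1B8, 0 to 5 in gs2_B4, 1 to 7 in gs1_B11, 3 to 6 in gs2_F6 and 5 to 10 in gs1_B4, and lower counts of 3 to 9 in gs1B8 and 13 to 19 in gs1_C8. It gave 0 to 3 higher with leflunomide. For both clones it gave 0 to 1 higher and 3 to 9 lower for Drp1, 0 to 2 higher for Fis1 and 4 to 10 lower for Mff.

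The main fits did not pair libraries by the serial run of columns. In the knockout arm same-run deviations had a mean r of 0.08 (-0.10 to 0.30 over 63 pairs), against -0.04 for other pairs. In the drug arm the means were 0.15 (3 pairs) and -0.07, so a weak likeness within runs remains possible. With the run as a replicate block, 0 of the 79 calls were lost and 6 gained, which made the lower count 1 in all 6 clones, 2 in both Fis1 clones and 2 in gs2_F6.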

Other observations

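Of 6 enzymes outside complex I that are linked to NADH or ubiquinone, 3 fell in both Drp1 clones and 2 fell in both Fis1 clones. Over all tested genes 12.1% and 9.02% did. In both Mff clones 2 of the 6 rose and 1 fell, where 7.37% of all genes rose and 11.3% fell. In all 6 clones 2.10% of all genes fell. Dhodh, which passes electrons from pyrimidine synthesis to ubiquinone, fell in all 6 clones, by 0.53, 0.72, 0.28, 0.20, 0.30 and 0.25 on the log2 scale in gs1B8, gs2_B4, gs1_B11, gs2_F6, gs1_B4 and gs1_C8. Sqor, which oxidises hydrogen sulphide, had log2 fold changes of -0.61 ± 0.17 and -1.29 ± 0.18 in gs1B8 and gs2_B4 and of -1.43 ± 0.19 and -2.12 ± 0.20 in gs1_B11 and gs2_F6, but of 1.40 ± 0.16 and 0.66 ± 0.16 in gs1_B4 and gs1_C8 (edgeR adjusted p from 8.8e-08 to 0.012). Gpd2, the mitochondrial glycerol-3-phosphate dehydrogenase, fell by 0.57 ± 0.04 and 0.50 ± 0.04 in gs1B8 and gs2_B4 and rose by 0.43 ± 0.04 and 0.24 ± 0.04 in gs1_B4 and gs1_C8. Among the Fis1 clones it fell in gs1_B11 (-0.34) and was not called in gs2_F6. Etfdh fell in gs2_B4, gs1_B11 and gs1_B4, Aifm2 fell in gs1_B11 and rose in gs1_C8, and Nnt fell in gs2_F6. Whether the genotypes differed in these genes was not tested.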
